A study of Homo sapiens with 8 samples.

Results

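Doublecortin and 9 other genes of the neuronal microtubule cytoskeleton were followed in Rh41 cells. Rh41 is a human line from an alveolar rhabdomyosarcoma. This soft-tissue tumour resembles embryonic skeletal muscle, and the line carries the PAX3-FOXO1 fusion, a transcription factor that joins a DNA-binding part to a strong activator. In all, 10 of the 60234 genes in the deposited table were members: DCX, DCLK1, DCLK2, MAP1B, MAP2, MAPT, STMN1, STMN2, TUBB3 and TUBB2B. The list was chosen by one measured value, the very low level of DCX after knockdown, and the remaining 9 genes were named for what they encode. DCX is therefore described without a test.

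The 8 libraries form a control group of 4 and a group labelled siG9a of 4, numbered 1 to 4 in each. G9a, encoded by EHMT2, is a histone methyltransferase that places repressive methyl marks on lysine 9 of histone H3. All libraries were Rh41 cells and differed by label only in the knockdown; the series title writes shG9a where the sample labels write siG9a, and the control reagent and the time after knockdown are not given in the sources used here. The design calls the replicates biological without saying whether they were separate cultures, so p-values measure the spread between these libraries. Values are CPM, each gene's reads scaled to one common library total, from QuantSeq libraries, which read the polyadenylated end of a transcript, so a level does not depend on transcript length.

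Microtubules are hollow polymers of alpha- and beta-tubulin that grow and shrink at their ends. In migrating and growing neurons, doublecortin binds along the lattice and stabilises it, structural microtubule-associated proteins (MAPs) such as MAP1B, MAP2 and tau (MAPT) bundle it, and stathmins take up free tubulin and favour disassembly. Doublecortin is known as a marker of young neurons and has also been used as a marker of rhabdomyosarcoma.

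The libraries held 1458825 to 1938665 reads, so that 1 read was worth 0.516 to 0.685 CPM. Only DCX, MAP1B, STMN1 and TUBB2B had more than 200 reads in the control group; each of the other 6 members had 53 or fewer. Both replicate 3 libraries stood apart. In control replicate 3, 12 skeletal muscle markers summed to 1061 CPM against 5502 to 6117 CPM in the other controls, and 15 neuronal markers summed to 9626 CPM against 209 to 2069 CPM. Results are therefore given with and without replicate 3. MYOD1, the master regulator of the muscle lineage, was detected in every library (95.3 to 864 CPM in control). EHMT2 was at 34.04%, 51.6%, 37.9% and 66.3% of the same-numbered control in replicates 1 to 4. By point values the depletion was least in replicate 4 (exact 95% interval for counting error 51.3% to 85.2%). That interval overlaps those of replicates 2 (36.9% to 71.4%) and 3 (27.4% to 51.8%).

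Promoter windows are shown for DCX, for MAP1B, the other member called in any fit of all libraries, and for TUBB2B, which was lower in the same replicate numbers as MAP1B, because the sequence around their starts differs in CpG content. Each is 300 bases, from 250 before to 50 after a RefSeq start in GRCh38.p14, written 5′ to 3′ on the gene's strand with every CpG in capitals. Of 3 DCX windows, A lies at chrX:111411097-111411396 and B at chrX:111412048-111412347, both on the minus strand, the MAP1B window at chr5:72107225-72107524 on the plus strand and the TUBB2B window at chr6:3227604-3227903 on the minus strand. Which start was used in Rh41 was not measured.
DCX window A: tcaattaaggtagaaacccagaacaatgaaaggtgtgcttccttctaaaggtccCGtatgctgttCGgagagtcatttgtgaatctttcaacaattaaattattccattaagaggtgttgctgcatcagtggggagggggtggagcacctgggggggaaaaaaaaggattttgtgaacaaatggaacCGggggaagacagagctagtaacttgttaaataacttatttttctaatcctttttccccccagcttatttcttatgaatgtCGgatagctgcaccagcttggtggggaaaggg
DCX window B: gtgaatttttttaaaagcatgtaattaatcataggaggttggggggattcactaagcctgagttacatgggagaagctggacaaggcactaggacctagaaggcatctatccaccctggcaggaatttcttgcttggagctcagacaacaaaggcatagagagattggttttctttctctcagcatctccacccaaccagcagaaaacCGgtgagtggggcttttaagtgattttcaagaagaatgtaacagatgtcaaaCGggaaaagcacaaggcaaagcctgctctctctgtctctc
MAP1B: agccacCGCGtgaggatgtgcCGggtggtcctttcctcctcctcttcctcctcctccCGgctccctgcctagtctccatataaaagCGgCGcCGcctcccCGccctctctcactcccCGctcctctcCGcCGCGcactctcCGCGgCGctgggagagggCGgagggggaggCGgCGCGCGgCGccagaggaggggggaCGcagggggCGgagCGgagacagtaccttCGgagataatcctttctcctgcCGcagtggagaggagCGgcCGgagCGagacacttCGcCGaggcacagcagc
TUBB2B: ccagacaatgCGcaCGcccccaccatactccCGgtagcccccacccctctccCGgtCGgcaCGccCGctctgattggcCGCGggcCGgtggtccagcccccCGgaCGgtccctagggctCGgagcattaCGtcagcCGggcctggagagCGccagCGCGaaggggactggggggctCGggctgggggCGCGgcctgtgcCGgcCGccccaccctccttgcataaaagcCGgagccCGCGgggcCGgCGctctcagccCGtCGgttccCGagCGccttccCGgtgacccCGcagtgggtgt

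The DCX windows A and B held 4 and 2 CpG, and the DCX window that is not printed, at chrX:111412143-111412442, held 2, with GC contents of 43% to 45%. At most 4 CpG were found in 29.6% of all 35116 RefSeq windows, whose median was 14 CpG and 58.7% GC. The MAP1B window held 31 CpG and the TUBB2B window 34, and 20.7% and 15.6% of all windows held at least that many. A second MAP1B window held 12 CpG. DCLK1 had windows with 2, 5 and 27 CpG, and the single DCLK2 window held 34. Windows of MAP2 held 7, 10 and 5 CpG, those of STMN1 31, 29 and 19, and those of TUBB3 9 and 47. The contrast in CpG content is part of why the printed windows are shown. A relation between CpG content and the changes was not tested.

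The E-box word CANNTG, which is its own reverse complement in these letters and is bound by MYOD and other basic helix-loop-helix factors, was counted in the same windows. DCX window A held 3, with first bases at −177 (CATTTG), −105 (CACCTG) and −73 (CAAATG) from the start at 1, and 15.3% of all windows held 3 or more. DCX window B held 1, at −1 (CAGATG), the DCX window that is not printed held 0, and 68.7% of all windows held at least 1. Among the other members, one STMN1 window held 4, 2 MAP2 windows and one DCLK1 window held 2 each, and the windows of TUBB2B, TUBB3 and DCLK2 held 0. Of the 2 MAP1B windows, the printed one held 0 and the other 1. A match is a word in a sequence and was not measured as a bound site.

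**Figure D1:**
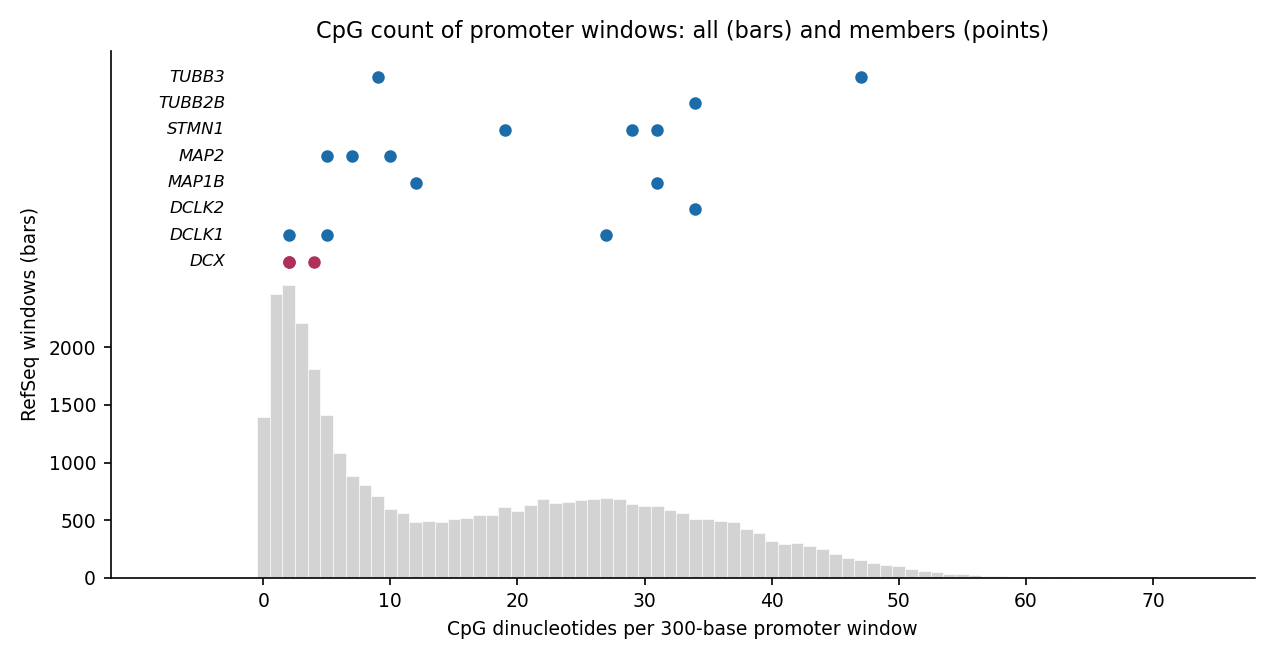
Number of CpG dinucleotides in 300-base promoter windows: grey bars count all 35116 RefSeq windows, and points mark each window of 8 members (DCX in red; 2 of its 3 windows coincide at 2 CpG). The DCX points lie at 2 and 4, and the TUBB2B and DCLK2 points at 34.

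DCX, the microtubule-stabilising protein that gives its family its name, was almost lost in the siG9a libraries. The 4 control libraries, in the order of their numbers, held 109, 71, 14 and 96 DCX reads, or 74.7, 43.1, 8.61 and 49.9 CPM. The 4 siG9a libraries held 1, 3, 2 and 10 reads, or 0.52, 1.82, 1.14 and 5.74 CPM. By the Wilson method the 95% interval of the lowest control was 5.13 to 14.5 CPM and that of the highest siG9a library 3.12 to 10.6 CPM, so these closest libraries overlap in counting error. As point values, all 4 siG9a libraries lay below all 4 control libraries, and control replicate 3 was far below the other controls.

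The group means of DCX were 44.1 ± 27.3 and 2.31 ± 2.35 CPM (SD, n = 4 each), so the siG9a mean was 5.23% of control. The siG9a library held 0.690% of its same-numbered control in replicate 1 (exact 95% interval for counting error 0.0173% to 3.93%), 4.21% in replicate 2 (0.848% to 12.8%), 13.3% in replicate 3 (1.46% to 57.8%) and 11.5% in replicate 4 (5.35% to 22.1%). The remaining share was smallest in replicate 1, and its interval is clear of that of replicate 4 alone. By point values the DCX shares did not follow the order of EHMT2. EHMT2 was lowest in replicate 1, at 34.04% of control (exact 95% counting interval 22.6% to 50.5%). It was next in replicate 3, at 37.9% (27.4% to 51.8%), where the DCX share was largest. A relation between EHMT2 and DCX levels was not tested. On the log2(CPM + 1) scale the difference was −3.67 ± 0.63 (SE), and it was −4.17 ± 0.47 without both replicate 3 libraries.

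DCLK1, a kinase that carries doublecortin domains, was lower in 4 of 4 replicate numbers but was barely detected. It measured 5.48, 2.43, 1.23 and 1.56 CPM in control (17 reads in all) and 1.55, 0, 0 and 0.57 CPM in siG9a (4 reads in all). Its groups overlapped. For DCLK1 limma gave a log2 difference of −1.25 ± 0.49 (SE; adjusted p = 0.336, and 0.0768 with the replicate number as a block), so it did not pass the threshold of 0.05. DCLK2, the other doublecortin-like kinase studied, measured 3.43, 3.04, 1.23 and 2.60 CPM in control and 1.55, 2.42, 1.14 and 5.74 CPM in siG9a, on 17 and 19 reads, and at this depth no difference was detectable (limma adjusted p = 0.978). Its siG9a libraries lay on both sides of the control range.

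MAP1B, the large MAP that is made early in axon growth, was lower in siG9a in replicates 1 to 3 and not in replicate 4. In control it measured 636, 549, 505 and 561 CPM in replicates 1 to 4. In siG9a it measured 264, 278, 203 and 626 CPM. The siG9a libraries of replicates 1 to 3 were below every control, and siG9a replicate 4 lay within the control range.

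The group means of MAP1B were 563 ± 54.3 and 343 ± 192 CPM (SD, n = 4 each). Within replicate numbers, siG9a held 41.4% (exact 95% counting interval 37.1% to 46.2%), 50.7% (45.2% to 56.8%), 40.2% (35.4% to 45.6%) and 111.7% (102.6% to 121.6%) of control. The log2 difference was −0.85, with a standard error of 0.30 and an adjusted p of 0.274 by limma, and a standard error of 0.18 and an adjusted p of 0.00255 with the replicate block. MAP1B thus passed the threshold in the paired fit and not in the unpaired one. That call was lost without both replicate 3 libraries (log2 difference −0.70, adjusted p = 0.0584). Without both replicate 4 libraries, the pair that went the other way, the difference grew to −1.19 (adjusted p = 3.06e-05).

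MAP2, the dendritic MAP, was low and did not pass the threshold. It measured 11.0, 6.68, 3.07 and 10.9 CPM in control and 8.77, 3.03, 2.85 and 9.18 CPM in siG9a, on 53 and 43 reads. It was lower in 4 of 4 replicate numbers, yet by less than the standard error of the difference (log2 difference −0.38 ± 0.49, SE, limma adjusted p = 0.809). MAPT, which encodes tau, measured 3.43, 3.65, 4.92 and 5.19 CPM in control and 0.52, 4.24, 10.3 and 0.57 CPM in siG9a. Its siG9a values lay on both sides of the whole control range, with replicate 3 the highest library and replicates 1 and 4 at 1 read each, and the limma adjusted p was 0.739.

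STMN1, the stathmin of proliferating and immature cells, was the most abundant member and showed no common direction. It measured 987, 935, 456 and 767 CPM in control and 1250, 730, 588 and 785 CPM in siG9a. It was higher in replicates 1 and 3, lower in replicate 2 and 102.4% of control in replicate 4 (exact 95% counting interval 95.05% to 110.3%). The log2 difference was 0.10 ± 0.29 (SE) with a limma adjusted p of 0.935. STMN1 was lowest in replicate 3 in both groups. STMN2, the stathmin largely restricted to neurons, had 5 reads in control and 4 in siG9a, all in replicates 1 and 3, and its mean of 0.67 CPM kept it out of the test.

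Of the beta-tubulins, TUBB2B had the same pattern as MAP1B across the replicate numbers. TUBB2B, a major isotype of newborn neurons, measured 389, 327, 376 and 224 CPM in control and 261, 232, 244 and 383 CPM in siG9a. The siG9a library was at 67.2%, 71.1% and 64.8% of control in replicates 1 to 3 and at 170.5% (exact 95% counting interval 150.9% to 192.9%) in replicate 4. Over all libraries limma gave a log2 difference of −0.23 ± 0.24 (SE; adjusted p = 0.746, and 0.455 with the replicate block). Without both replicate 4 libraries the paired fit gave −0.56 with an adjusted p of 0.0119, so replicate 4 decided this value. Without number 1, 2 or 3 the paired adjusted p was 0.806, 0.778 and 0.843. Number 4 is the pair that went the other way, so leaving it out favours a lower p by itself. The EHMT2 level was highest in siG9a replicate 4, at 58.5 CPM against 19.6 to 35.1 CPM in the other siG9a libraries, and its part in the MAP1B and TUBB2B values was not tested.

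TUBB3, the neuron-enriched beta-tubulin used to stain neurons, was close to the floor of 3 reads in most libraries. The table lists it under 2 identifiers, one at 0 throughout, and the other (ENSG00000258947) measured 2.74, 7.29, 0 and 0 CPM in control and 0.52, 2.42, 1.14 and 1.15 CPM in siG9a. The 2 controls at 0 allow up to 1.84 and 1.56 CPM (3 reads), so these 2 cannot be ordered against the siG9a libraries. The limma adjusted p was 0.971. TUBB3 is also the one member whose reads can be confused with other genes. Of the distinct 75-base words in the last 500 bases of its GENCODE 29 transcripts, 30.2% occur in other genes (AC092143.1, TUBB2A, TUBB2B, TUBB4A and TUBB4B). For each of the other 9 members, TUBB2B included, 0% did so. AC092143.1 is a protein-coding gene that overlaps TUBB3 on the same strand without covering its annotated end. How many TUBB3 reads were lost or gained in this way was not measured.

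**Figure D2:**
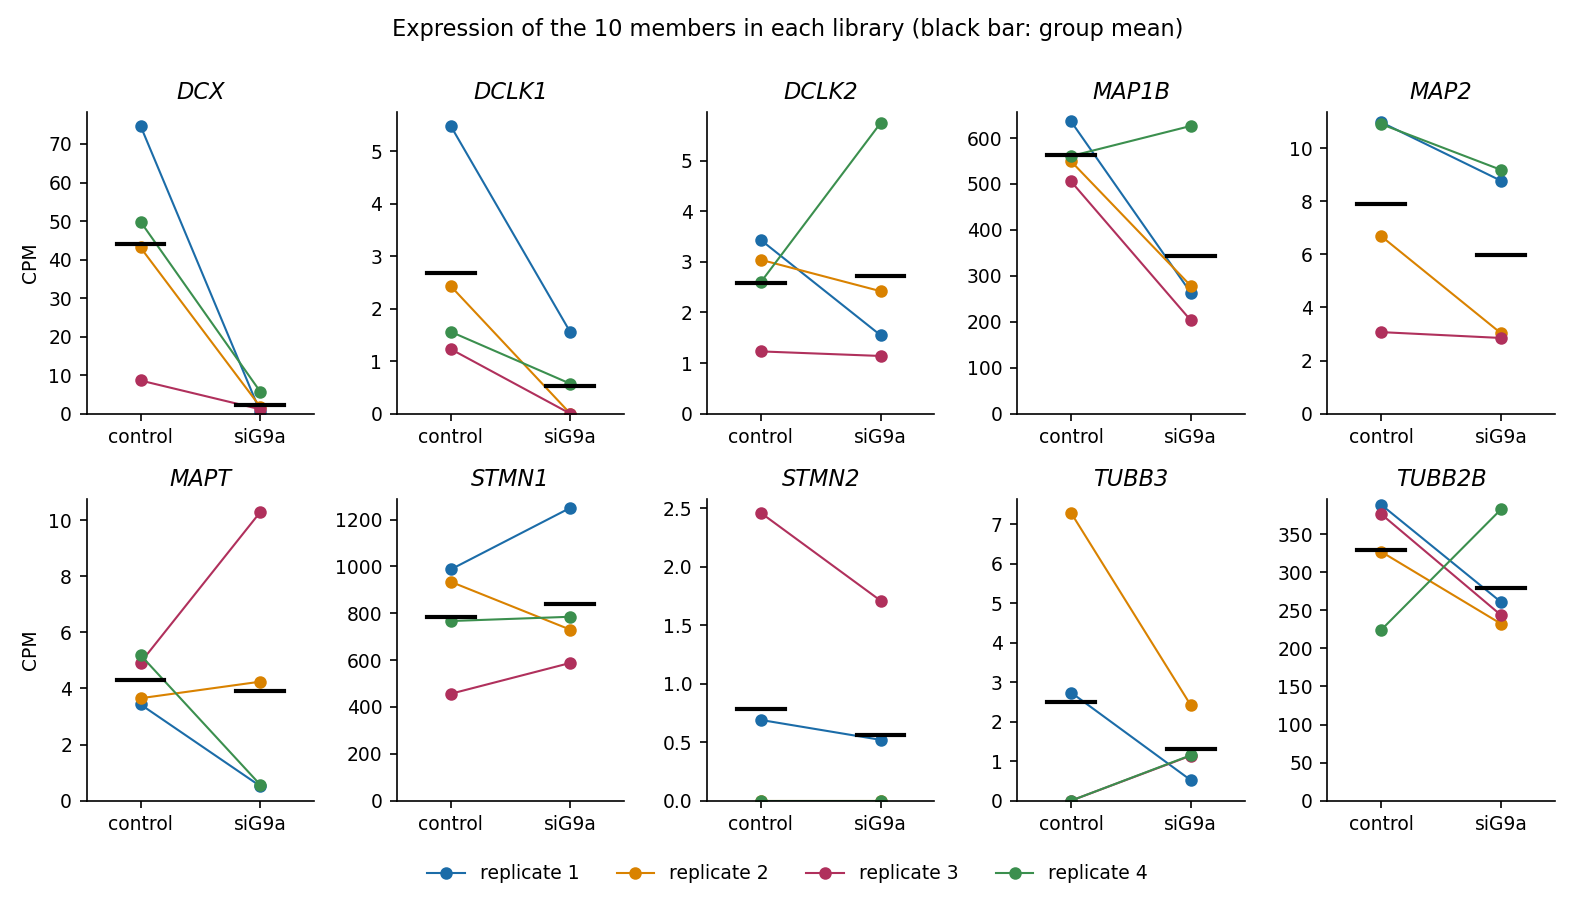
CPM of each member in the control and siG9a libraries; each coloured line joins the 2 libraries with one replicate number, and the black bars are group means (n = 4). All 4 siG9a values of DCX lie below the lowest control (8.61 CPM), while MAP1B and TUBB2B go down in replicates 1 to 3 and up in replicate 4.

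**Figure D3:**
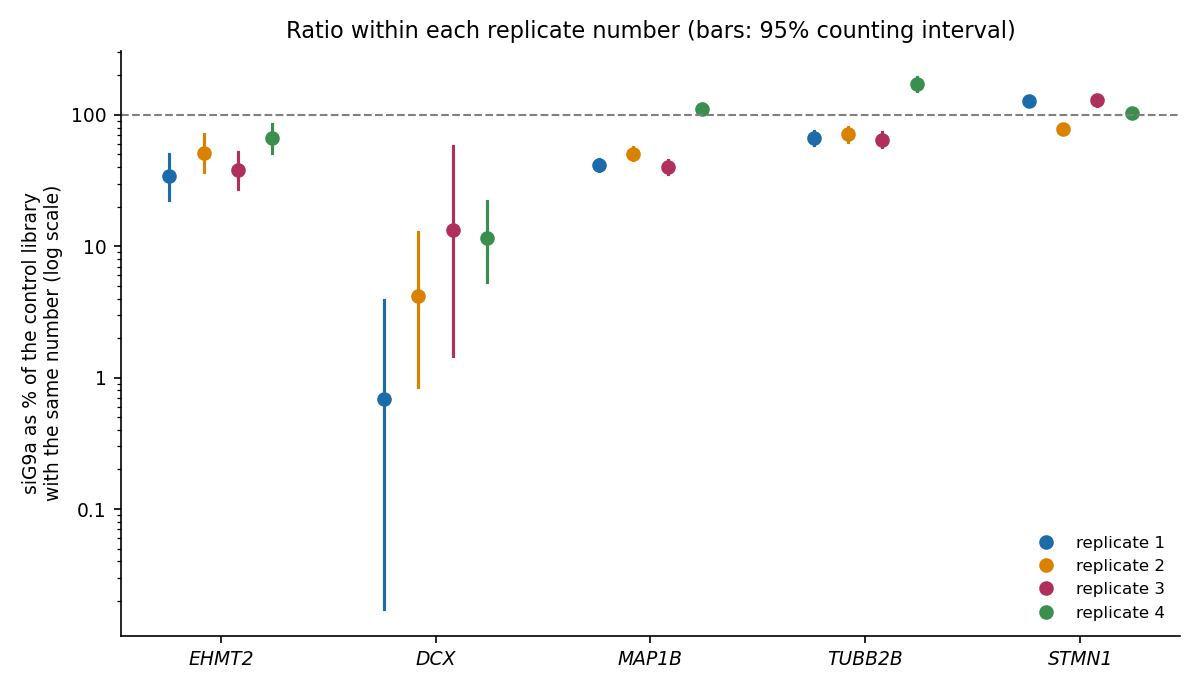
For each replicate number, the siG9a level as a percentage of control (log axis), for EHMT2 and the 4 members with over 200 control reads; bars are exact 95% intervals for counting error, and the dashed line marks 100%. DCX lies between 0.690% and 13.3%, and MAP1B and TUBB2B are below 100% in replicates 1 to 3 and above it in replicate 4.

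By level in control, STMN1 (456 to 987 CPM) and MAP1B (505 to 636 CPM) overlapped at the top, TUBB2B (224 to 389 CPM) lay below MAP1B in every library, and DCX (8.61 to 74.7 CPM) lay below TUBB2B. The remaining 6 members did not exceed 11.0 CPM in any control library, and not all of them can be ordered at this depth. By the Wilson method, MAP2 in control replicate 4 (7.13 to 16.7 CPM) was clear of DCLK2 (1.11 to 6.08 CPM) but not of MAPT (2.82 to 9.56 CPM). In control replicate 3, MAP2 (1.31 to 7.20 CPM) overlapped DCLK2 (0.337 to 4.48 CPM) too. In GENCODE 29, STMN1, MAP2, MAP1B, TUBB2B, TUBB3 and MAPT overlap genes on the other strand (for MAP1B AC093218.1, for TUBB2B PSMG4, for MAPT MAPT-AS1 among others), whose reads cannot be told apart where they overlap if strand was not used. None of these genes covers the last annotated base of the member. Overlap with the stretch just before that base, where QuantSeq reads lie, was not checked.

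Across the members, 9 of 10 had a lower mean log2 level in siG9a, as had 7373 of the 15092 genes tested (mean 1 CPM or more). The median difference was −0.31 for the members and 0.01 over all genes tested. The choice of DCX is part of these numbers, and STMN2 was too low to test. DCLK2 (−0.05) and TUBB3 (−0.09) were close to no change and turned sign in some alternatives. The 4 siG9a values lay below all 4 control values in 1 of 10 members, DCX, and in 3.45% of all genes tested. DCX, DCLK1 and MAP2 were lower in 4 of 4 replicate numbers, as were 15.3% of all genes tested.

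Of the 8 tested members other than DCX, limma without a block called 0, beside 0% of all genes. At an unadjusted p under 0.05 there were 2 of the 8 (MAP1B and DCLK1), beside 1880 of the 15092 genes tested. Without a block, edgeR and DESeq2 also called 0 of the 8. With the replicate block, limma called 1 of the 8, MAP1B, beside 11.4% of all genes, and edgeR and DESeq2 with the block each called 1 as well. Without both replicate 3 libraries, 0 of the 8 were called, where limma called 2.74% of all genes. In the paired form of that fit 0 were called again, where it called 7.14%. At an unadjusted p under 0.05 there were 2 and 3 of the 8 in these fits, beside 2616 and 3350 of the 15092 genes tested. A single call among 8 genes is near the background and says nothing about the members as a group.

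The wider microtubule machinery was described with 96 further genes in 8 lists, of which 85 passed the filter. Without a block, limma called 0 of the 85, with 10 at an unadjusted p under 0.05, beside 1880 of the 15092 genes tested. In the same design edgeR called 0 of the 85 and DESeq2 called 3, beside 0 and 291 of all genes. With the replicate block, limma called 12 (14.1%, beside 11.4% of all genes), 9 of them lower (10.6%, beside 6.52%) and 3 higher (3.53%, beside 4.86%). The median log2 difference of the 85 genes was −0.08. Most of the machinery therefore showed no call in either direction, and the calls named next rest on the paired fit.

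Of the 12 genes called, KIF1A had the largest difference. KIF1A, the kinesin that carries synaptic vesicle precursors, measured 81.6, 58.3, 19.1 and 56.6 CPM in control and 12.4, 17.0, 5.14 and 13.8 CPM in siG9a. It fell by 2.01 on the log2 scale (paired limma adjusted p = 4.36e-06, and 0.117 without the block), with no overlap between the groups. KIF5C, a neuron-enriched heavy chain of conventional kinesin, measured 58.3, 48.6, 38.1 and 35.8 CPM in control and 18.9 to 21.7 CPM in siG9a. Its log2 change was −1.12 (paired limma adjusted p = 0.00121, and 0.114 without the block), again without overlap. Of the 17 motor and migration genes, 2 fell and 0 rose in the paired fit, and both held without replicate 3 (adjusted p = 4.70e-05 and 0.00573).

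Among 12 structural MAPs and stathmins, 2 fell and 1 rose in the paired fit. MAP1A, the adult relative of MAP1B, fell from 77.3 ± 39.1 to 37.1 ± 24.8 CPM (SD, n = 4 each; paired limma adjusted p = 0.000380, and 0.454 without the block). MAP6D1, a small relative of the stable tubule only protein MAP6, fell from 26.04 ± 8.77 to 8.63 ± 3.01 CPM (paired limma adjusted p = 0.00222, and 0.131 without the block). MAP7D2, a MAP that recruits kinesin, rose from 10.47 ± 4.95 to 23.5 ± 9.51 CPM (paired limma adjusted p = 0.0141, and 0.273 without the block), a call that was lost without replicate 3 (adjusted p = 0.106). MAP1A was below its same-numbered control in 4 of 4 cases.

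Among 13 tested tubulins, 3 fell and 1 rose in the paired fit. TUBB6, a beta-tubulin of broad expression, fell from 706 ± 307 to 408 ± 177 CPM, and TUBA1A, the alpha-tubulin of developing neurons, fell from 286 ± 95.3 to 183 ± 61.7 CPM (SD, n = 4 each; paired limma adjusted p = 0.000533 and 0.0141, and 0.513 and 0.372 without the block). TUBA1C, an alpha-tubulin of dividing cells, rose from 871 ± 189 to 1367 ± 180 CPM without overlap (paired limma adjusted p = 0.00482, and 0.237 without the block). The remaining call, TUBB, named because it was the last of the 4 and after its values were seen, went from 3072 ± 333 to 2200 ± 802 CPM (paired limma adjusted p = 0.0252, and 0.469 without the block). Calls for TUBA1A and TUBB were lost without replicate 3 (adjusted p = 0.0849 and 0.0745), at log2 differences of −0.62 and −0.65, against −0.64 and −0.57 with all libraries. Tubulin genes are near-identical in their coding parts, so reads outside their distinct ends may have been assigned to the wrong copy.

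Of 17 genes for tubulin folding and modification, 2 fell and 1 rose in the paired fit. VASH2, a carboxypeptidase that removes the terminal tyrosine of alpha-tubulin, fell from 146 ± 76.1 to 53.4 ± 29.6 CPM, and TTLL7, a polyglutamylase of beta-tubulin, fell from 133 ± 54.4 to 75.4 ± 42.8 CPM (SD, n = 4 each; paired limma adjusted p = 9.38e-06 and 0.000799, and 0.374 and 0.477 without the block). TBCB, a tubulin folding cofactor, rose from 95.6 ± 25.7 to 158.2 ± 25.5 CPM (paired limma adjusted p = 0.00313, and 0.233 without the block). These 3 calls held without replicate 3. In the lists that remain, none of the 9 tested end-binding proteins, 6 severing enzymes or 11 kinases was called by limma with the block, with 0, 1 and 0 of them at an unadjusted p under 0.05 without it. By edgeR with the block, CLIP2, a plus-end protein, and FIGNL1, of the severing list, were called (adjusted p = 0.0344 and 0.0464, against 0.132 and 0.0522 by limma); both were named after their values were seen. CLIP2 was also called by paired limma without replicate 3 (log2 difference −1.15, adjusted p = 0.0190). The 4 further doublecortin-domain genes were under a mean of 1 CPM.

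**Figure D4:**
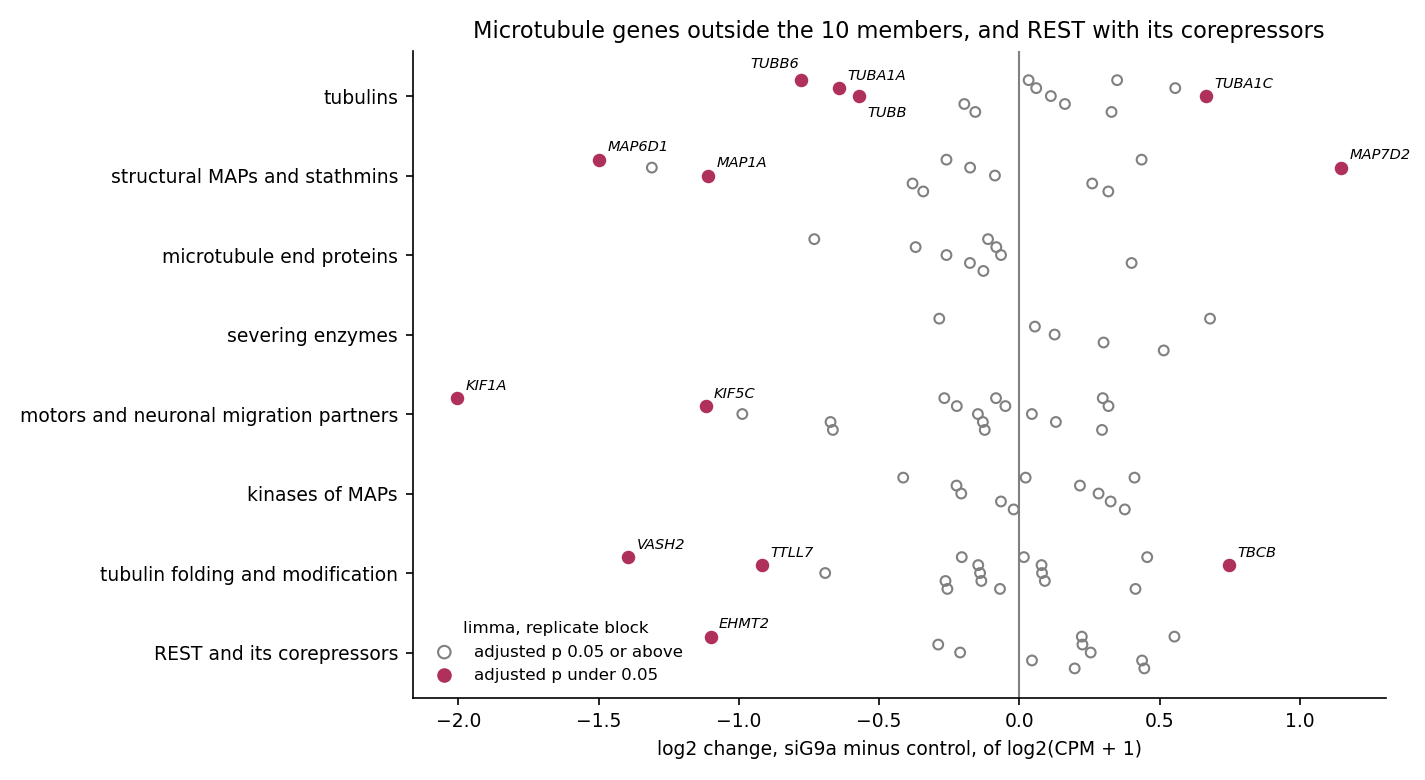
Difference in mean log2(CPM + 1), siG9a minus control, of the tested genes in each list (1 point a gene, spread vertically for legibility); filled points have an adjusted p under 0.05 in limma with the replicate block. KIF1A lies furthest to the left at −2.01, and most points lie between −0.5 and 0.5.

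REST, a repressor that holds neuronal genes silent in other cell types and works with histone methyltransferases and deacetylases, was listed with 10 partners. Of the 11 genes, 1 fell and 0 rose in the paired fit, and the 1 was EHMT2 itself. Its paired limma adjusted p was 0.000472, and 0.191 without the block, so the main fit did not call it. EHMT2 measured 57.6, 68.1, 87.3 and 88.3 CPM in control and 19.6, 35.1, 33.1 and 58.5 CPM in siG9a. The groups thus overlapped at control replicate 1 and siG9a replicate 4. REST, named as the head of this list, had means of 101.9 ± 42.96 and 110.99 ± 12.97 CPM (control and siG9a, SD, n = 4 each; limma adjusted p = 0.822, and 0.526 with the block). REST did not pass the threshold. STMN2, largely restricted to neurons, stayed near the floor in both groups. The neuron-enriched TUBB3 was close to the floor in most libraries, but it shares part of its ends with other genes.

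Markers of other cell types were set beside DCX, since fewer cells of a type and less RNA per cell cannot be told apart in bulk RNA. Of 15 neuronal markers, 8 had a mean under 1 CPM, among them NEUROD1 at 0 in every library, and 7 had a mean of 1 CPM or more. The neuronal sum was made mostly of 2 neurofilament genes, NEFM and NEFL, at means of 2925 and 530 CPM over the 8 libraries. NEFM measured 156, 1562, 8046 and 1737 CPM in control and 182, 2498, 7625 and 1597 CPM in siG9a. The neuronal sum was therefore highest in replicate 3 of both groups, where DCX was at 8.61 and 1.14 CPM, and lowest in control replicate 1, where DCX was highest.

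The muscle sum was instead lowest in replicate 3 of both groups. It ran from 1061 to 6117 CPM in control and from 1093 to 4137 CPM in siG9a, lower in 3 of 4 replicate numbers (exact permutation test, two-sided p = 0.400, where 4 against 4 can reach 0.0286). Without replicate 3, the siG9a sums (3354 to 4137 CPM) all lay below the control sums (5502 to 6117 CPM), with an exact permutation p of 0.1, the smallest that 3 against 3 can give. The 6 neural progenitor and glial markers, with GFAP and SOX10 at 0 throughout, summed to 194 to 794 CPM in control and 94.8 to 358 CPM in siG9a (exact permutation p = 0.0857, and 0.1 without replicate 3). That sum followed NES, the intermediate filament nestin, which immature muscle cells also make. NES measured 788, 755, 101 and 754 CPM in control and 218, 155, 45.7 and 327 CPM in siG9a. DCX, NES and the muscle sum were each lowest among controls in replicate 3, and the part of the cell composition in the DCX values was not tested.

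**Figure D5:**
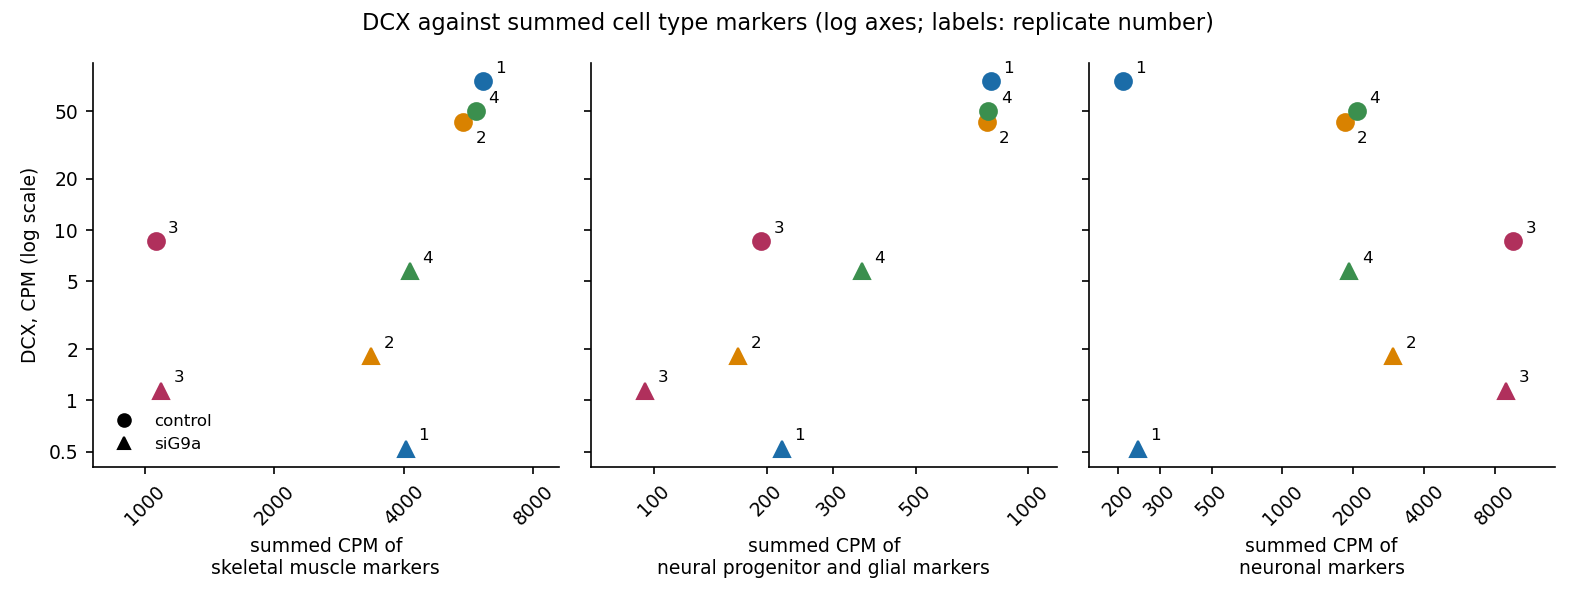
DCX (CPM, log axis) against the summed CPM of 3 marker lists (log axes) in the 8 libraries; circles are control, triangles are siG9a and labels are replicate numbers. Replicate 3 of both groups lies at the lowest muscle sums (1061 and 1093 CPM) and at the highest neuronal sums (9626 and 8937 CPM).

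The same-numbered libraries share more than the markers, and replicate 3 moved several members in both groups. Relative to the mean of the other 3 libraries of its group on the log2(CPM + 1) scale, DCX was shifted by −2.53 in control and −0.52 in siG9a. A shift of −2 or lower in control was seen for 3.14% of all genes tested. MAP2 was shifted by −1.34 and −0.94 and STMN1 by −0.96 and −0.60. STMN2 was shifted by 1.54 and 1.24, on 4 and 3 reads in these libraries. Of all genes tested, 7.23% were lower by 1 or more in both groups and 5.68% higher. MAP1B (−0.20 and −0.81) and TUBB2B (0.30 and −0.23) moved less. DCLK1 (−0.79 and −0.67) and DCLK2 (−0.85 and −0.86) were lower in both groups at low depth. TUBB3 (−1.65 and −0.06) moved mainly in control and MAPT (0.23 and 2.28) mainly in siG9a.

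The 5 genes whose log2 levels were most like those of DCX over the 8 libraries were KPNA4, ZEB1, CTD-2545M3.8, DNMT3A and MYO1C, with Pearson correlations of 0.989, 0.985, 0.980, 0.978 and 0.978. These are descriptions, since the 8 points share the group difference and the replicate 3 shift. ZEB1, a repressor of epithelial genes, measured 232, 240, 92.9 and 248 CPM in control and 36.1, 61.7, 49.1 and 103.8 CPM in siG9a. DNMT3A, a DNA methyltransferase that sets new methyl marks, measured 169, 158, 52.3 and 180 CPM in control and 28.4, 30.9, 20.6 and 60.2 CPM in siG9a. Both were picked for their likeness to DCX, so the low control replicate 3 and higher siG9a replicate 4 they share with it follow from that choice. Among the tested members, the correlation with DCX was 0.83 for MAP1B, 0.76 for DCLK1, 0.54 for MAP2 and 0.45 for DCLK2. It was 0.38 for TUBB2B, 0.26 for TUBB3, 0.19 for MAPT and 0.11 for STMN1. Of these, DCLK1, MAP2, DCLK2, TUBB3 and MAPT were at low depth.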

How the data were processed

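Gene expression was measured by single-end QuantSeq sequencing in 4 control and 4 siG9a libraries of Rh41 cells. The authors deposited CPM, to 2 decimals, for 60234 Ensembl genes, per the file headers. The submitters' processing notes name FastQC 0.11.8, Trim Galore, STAR 2.5.0a, HTSeq 0.8.0 and edgeR 3.28, and both GRCh38 and hg19, with no role; the use of strand is not given in the sources used here. In every library 100% of non-zero values were whole multiples of 1 read (within 0.0051 CPM), so whole reads were recovered. Intervals and floors (3 reads) cover counting error only.

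The main test was limma 3.58.1 in R 4.3.3 (trend, two-sided) on log2(CPM + 1) for 15092 genes (mean 1 CPM or more), with Benjamini-Hochberg adjustment over all of them and a threshold of 0.05. A symbol on several identifiers was taken from the row with the highest mean. Deviations of same-numbered libraries from their group means correlated across genes at 0.50, 0.104, 0.67 and 0.13 for numbers 1 to 4. The numbers come from the titles, and numbers 1, 3 and 4, but not 2, correlated best with their own number. The labels state no pairing, and the values of numbers 2 and 4 are low. A fit with the replicate number as a block is called paired only as a short name. Within each group, every 2 libraries differed by more than sampling noise (chi-square divided by its degrees of freedom, 6.67 to 33.03). The scripts were tested on simulated reads.

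Alternatives were pseudocounts of 0.1 and 5, other filters and scalings, symbol sums, leaving out libraries or pairs, and edgeR 4.0.16 and DESeq2 1.42.0 on recovered reads. Named genes are the members, up to 3 called genes a list by adjusted p, the 3 highest markers a list, EHMT2 and the 5 genes most correlated with DCX. Members and lists were chosen with earlier results of these data known. RefSeq windows (GRCh38.p14) matched 8 members, and GENCODE 29 served only for transcript ends and overlapping genes.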

Additional observations from a re-analysis of the deposited data

Results flagged for a closer look

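Of 34 groups of 4 libraries tested with Dixon's ratio for the members, EHMT2, the marker sums, the mitochondrial share and the read totals, 2 exceeded the 95% critical ratio, which chance does in about 1 group in 20. Both were control replicate 3. Its skeletal muscle markers summed to 1061 CPM where the other controls lay between 5502 and 6117 CPM, and its neural progenitor and glial markers summed to 193.7 CPM where the others lay between 774 and 794 CPM. No member was beyond the critical value in either group.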

How the results depend on the processing

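The log2 difference of DCX, whose direction the choice of the gene fixes, was −4.30 to −3.31 when single libraries were left out, and the median of the 10 members was −0.53 to −0.17. The block decided the calls. Without it limma called 0 genes, 18 with no filter, 413 without replicate 3 in both groups and 0 to 300 on leaving out single libraries (300 without control replicate 3, 2 without siG9a replicate 4); DESeq2 called 291. With the replicate block the counts were 1717 by limma, 1711 by edgeR and 969 by DESeq2, and 951, 668, 1078 and 1393 without replicate numbers 1, 2, 3 and 4. For the 85 microtubule genes outside the members the counts were 0 in the main fit, 5 without replicate 3, 0 to 4 on leaving out single libraries (4 without control replicate 3) and 3 by DESeq2. With the replicate block they were 12 by limma, 14 by edgeR, 12 by DESeq2, and 10, 9, 10 and 13 without numbers 1 to 4. For members other than DCX they were 0 without the block and 0 on leaving out any single library. With the replicate block they were 1 by each tool and 1, 1, 0 and 2 without numbers 1 to 4. The cause of these moves was not tested.

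DCLK1, MAP2 and MAPT, also at low depth, kept their sign in the 22, 24 and 23 alternatives that gave a value; DCLK2, TUBB3 and STMN1 did not. DCLK2 turned to 0.062 (edgeR), 0.0027 (edgeR, replicate block), 0.055 (DESeq2), 0.20 and 0.016 (paired, without number 1 or 2), and ran from −0.38 to 0.17 on leaving out libraries. TUBB3 turned to 0.88 with a pseudocount of 0.1 and to 0.31 and 0.30 (paired, without number 1 or 2), and ran from −0.51 to 0.51. STMN1 ran from −0.15 to 0.25, and the neuronal marker difference from −1723 to 2147 CPM, in checks of marker sums added after the data were seen. Rescaling by median ratios or quantiles moved the median of all genes by under 0.1 and reversed no member.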

Other observations

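Of 10 tested skeletal muscle markers, 5 fell and 0 rose in limma with the replicate block, where 6.52% of all genes fell. Without the block 0 were called, with 5 at an unadjusted p under 0.05, beside 1880 of the 15092 genes tested. MYL4, an embryonic myosin light chain named after its values were seen, was at 77.5, 57.1, 11.1 and 56.1 CPM in control and 2.58, 2.42, 0.57 and 5.74 CPM in siG9a, with no overlap (limma adjusted p = 0.0709, and 5.41e-08 with the block). TNNT1, the slow troponin T and the most abundant muscle marker, and MYOD1 did not pass the threshold (log2 differences −0.17 and −0.03, paired limma adjusted p = 0.517 and 0.935). TNNT1 was at 3244, 3107, 675 and 3112 CPM in control and 2609, 2337, 836 and 2581 CPM in siG9a. MYOD1 was at 864, 817, 95.3 and 854 CPM in control and 821, 608, 127.9 and 839 CPM in siG9a. ACTC1, the next most abundant, was at 880, 688, 87.3 and 1021 CPM in control and 321, 166, 19.4 and 365 CPM in siG9a. Its log2 difference was −1.77 (paired limma adjusted p = 2.46e-08, and 0.450 without the block). DES, TNNT2 and CHRNA1, named after their values were seen, were also called lower by paired limma (log2 differences −1.77, −1.75 and −1.15). Without the block their limma adjusted p was 0.300, 0.203 and 0.359.

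Of 4 tested fibroblast markers, 1 passed the threshold (COL1A1, log2 difference −0.85, paired limma adjusted p = 0.0410, and 0.414 without the block) and 0 rose. The COL1A1 call was lost without replicate 3 (−0.43, adjusted p = 0.382) and, with the block, in edgeR (0.0554) and DESeq2 (0.113). For the 7 fibroblast markers, the sum lay between 118 and 399 CPM in control and between 52.5 and 318 CPM in siG9a. Reads on 37 mitochondrial genes took a higher share of the siG9a library in 4 of 4 replicate numbers, at 4.59% to 9.18% in control and 5.21% to 13.7% in siG9a (exact permutation test, two-sided p = 0.200). Its part in the results was not tested.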
